A study of Mus musculus with 24 samples.

Results

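Gene expression around lights on was compared with gene expression around lights off in the cortical collecting duct (CCD), the last cortical segment of the renal tubule. Times are zeitgeber times (ZT), counted in hours from lights on at ZT0, with lights off at ZT12. The lights-on side held the 4 CCD pools of ZT20 and ZT0, and the lights-off side held the 4 CCD pools of ZT8 and ZT12. These are 8 of the 24 arrays of the series, and all 18194 genes with a probe set of a single symbol were compared. The other arrays were 4 CCD pools of ZT4 and ZT16 and 12 pools of distal convoluted and connecting tubules (DCT/CNT), with 2 pools per segment and time at intervals of 4 h. All groups were male C57BL/6J mice of 25 to 30 g, kept on standard chow under a cycle with 12 h of light, and no gene deletion, transgene or drug is named for any of them. Tubules were dissected by hand from collagenase-treated left kidneys, RNA of 5 animals per time went into the pools, and 10 ng of total RNA per array entered the amplification. It is not stated whether the 2 pools of a time share animals, so the p-values below measure the spread between pools, which may be technical.

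The mammalian clock is a loop of transcription factors. ARNTL (BMAL1) pairs with CLOCK or NPAS2, binds E-boxes and activates the Per, Cry, Nr1d and Ciart genes. The PER and CRY proteins then repress that pair, the NR1D (REV-ERB) proteins repress Arntl, Npas2, Clock and Nfil3 through ROR elements, and the PAR bZIP factors DBP, TEF and HLF act on D-boxes against the repressor NFIL3. In the collecting duct, principal cells reabsorb sodium through the epithelial sodium channel and water through aquaporin 2 under vasopressin, and intercalated cells move acid and base. Mice are active at night, so lights on ends their active phase and lights off begins it.

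The labelled segment was checked against defining markers, chosen here after their values were seen. Aqp2, the vasopressin-regulated water channel of principal cells, lay between 9.98 and 10.6 on the 8 CCD arrays and between 7.76 and 8.12 on the 8 DCT/CNT arrays of the same times (log2). Slc12a3, the thiazide-sensitive cotransporter of the distal convoluted tubule, lay between 4.48 and 5.75 on CCD arrays and between 9.29 and 12.1 on DCT/CNT arrays. Other genes of the DCT/CNT marker list were high in both segments, such as the calcium-binding proteins Calb1 (11.6 to 12.0 in CCD, 12.3 to 12.8 in DCT/CNT) and S100g (11.6 to 12.3 and 13.3 to 13.5). Umod, which marks the thick ascending limb, still read 8.54 to 11.0 on CCD arrays, and Slc34a1, a phosphate transporter of the proximal tubule, read 6.80 to 8.55. Markers of neighbouring segments thus gave signal in the pools. The mean of the 18 measured proximal tubule markers overlapped between the sides, from 6.96 to 8.07 around lights on and from 7.04 to 8.60 around lights off. That of the 10 thick ascending limb markers overlapped too, from 7.60 to 8.02 and from 7.27 to 7.84. With the proximal tubule mean as a covariate, an alternative chosen after seeing the data, 133 genes were called, 118 of them among the 193 called without it. Of the genes named below, Pxdc1, Ifit1, Leo1, Kcnk1, Hspb8, Herpud1, Hspa5, Cirbp and Aldh1a1 lost their calls in that fit, with adjusted p from 0.0505 to 0.0707. The part of the other segments' RNA was not tested.

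In CCD, 193 of the 18194 genes differed between the sides (1.06% of those tested, adjusted p under 0.05). Of these, 95 were higher around lights on (0.522%) and 98 were higher around lights off (0.539%). Differences are log2 values, the mean of ZT20 and ZT0 minus the mean of ZT8 and ZT12, so that a positive value is a higher level around lights on. The median size of a difference was 0.60 in both directions, and 10 of the 95 and 14 of the 98 exceeded 2-fold. Over all genes the median difference was -0.02 and the median standard deviation between pools of one group was 0.16. The 7 largest in size belonged to Dbp, Sphk2, Nr1d2, Nr1d1, Npas2, Per3 and Arntl, of which all but Sphk2 are on the clock lists below. The count is fragile: leaving out 1 array at a time gave 41 to 102 called genes, each of the 12 omissions moved it by more than 1.5 times, and the fewest remained without ZT8 pool 1. Omission of a ZT4 or ZT16 pool changed only the estimate of the spread. Either pool of such a time gave the same count (86 for ZT4, 102 for ZT16), so the 12 omissions are not independent checks. Leaving out 1 time gave 55 genes without ZT20, 22 without ZT0, 61 without ZT8 and 22 without ZT12. The direction of all 193 genes stayed as it was in each of these omissions. Nothing is read from that, since a gene whose sides do not overlap cannot turn when a time is left out. Of 51 called genes named in the text, 20 lost the call without ZT20, 35 without ZT0, 19 without ZT8 and 37 without ZT12. In 91 of the 95 and 90 of the 98 called genes all 4 pools of one side lay above the 4 of the other, which held for 8.85% of all genes, and since the same values set the call, nothing is read from that count.

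**Figure D1:**
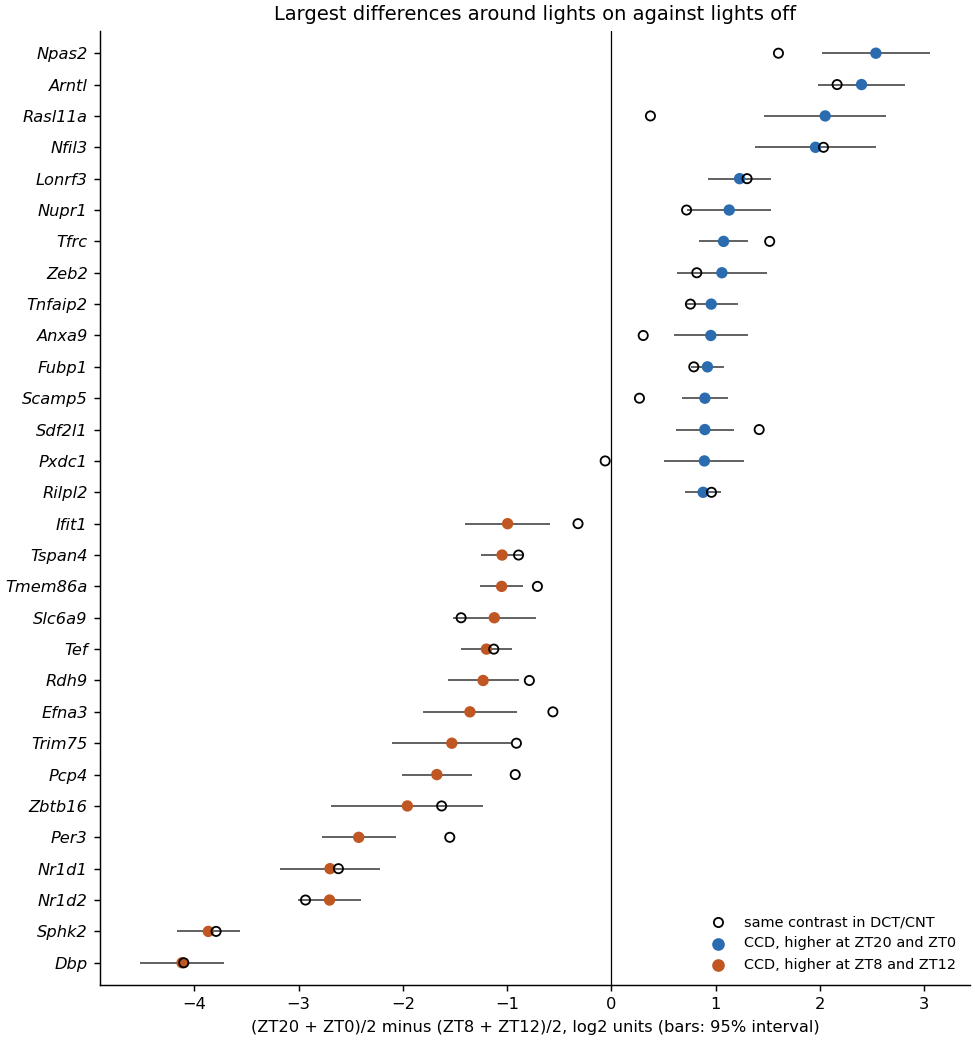
Difference between the lights-on and lights-off sides (log2) for the 15 largest called genes each way whose pools did not overlap. Filled points are CCD values with 95% intervals, and open circles give the same contrast in DCT/CNT. Values run from 2.54 for Npas2 to -4.12 for Dbp.

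Promoter sequence was set beside the calls because E-boxes, D-boxes and ROR elements are the sites through which the clock acts on its targets. RefSeq windows (GRCm38.p6) of 250 bases before to 50 bases after the start were matched for 71 of the 95 and 82 of the 98 called genes, and for 14368 of all genes tested. The E-box CACGTG stood in the window of 16.9% of the genes higher around lights on, 13.4% of those higher around lights off and 10.3% of all genes. The D-box (TTATGTAA or TTACGTAA) stood in 1.41%, 2.44% and 1.02%, and the ROR element in 2.82%, 0% and 0.668%, in the same order. Further motifs were searched too. The cyclic AMP response element stood in 5.63%, 2.44% and 2.94%, and the sterol element in 2.82%, 1.22% and 1.45%. The glucocorticoid element stood in 0%, 1.22% and 0.425%, and the heat shock element in 0%, 1.22% and 0.612%. The endoplasmic reticulum stress element is given with Hspa5 below. Both strands were searched, and 0 matches of one motif overlapped a match of another. A match is a description of the letters in this window, not a site shown to be bound.

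The upstream sequences of the 5 called genes of the clock lists with an E-box match follow, 5′ to 3′ and ending at the base before the start. Each E-box is in capitals. The other called genes of those lists, Dbp, Nr1d1, Nr1d2, Per3 and Cry2 among them, had no E-box match or no matched window. Ciart, a repressor of the CLOCK pair, has 3 within chr3:95882229-95882358 (minus strand). Tef lies at chr15:81802533-81802672 (plus strand) and Tspan4 at chr7:141476310-141476379 (plus strand), and these 3 genes were higher around lights off. Cry1 at chr10:85185055-85185134 (minus strand) and Lonrf3 at chrX:36328349-36328408 (plus strand) were higher around lights on. So the same motif stood before genes of both directions.
Ciart: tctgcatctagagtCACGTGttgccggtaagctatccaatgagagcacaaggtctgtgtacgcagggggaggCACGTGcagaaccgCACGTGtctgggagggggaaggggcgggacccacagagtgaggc
Tef: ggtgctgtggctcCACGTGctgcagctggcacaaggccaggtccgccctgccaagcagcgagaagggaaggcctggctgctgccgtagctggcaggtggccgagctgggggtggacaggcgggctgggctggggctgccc
Tspan4: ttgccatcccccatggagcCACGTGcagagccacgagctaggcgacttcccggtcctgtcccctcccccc
Cry1: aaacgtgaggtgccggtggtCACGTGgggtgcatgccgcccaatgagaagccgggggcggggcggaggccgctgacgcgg
Lonrf3: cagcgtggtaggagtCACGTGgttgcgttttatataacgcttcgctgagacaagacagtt

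Per3, a period gene higher around lights off, is shown for its pair of D-boxes at chr4:151044666-151044885 (minus strand), in capitals. Leo1, a subunit of the PAF transcription complex that was higher around lights on, is shown for its ROR element at chr9:75441444-75441523 (plus strand). Hspa5, the endoplasmic reticulum chaperone BiP, was also higher around lights on and has the endoplasmic reticulum stress element at chr2:34772010-34772089 (plus strand). That motif stood in 1 of 71 windows of genes higher around lights on (1.41%), which is that of Hspa5 itself, shown for it. It stood in 0% of those higher around lights off and 0.139% of all genes. Arntl and Leo1 were the 2 called genes with a ROR element in the window, and that of Arntl lies after the start of one of its transcripts.
Per3: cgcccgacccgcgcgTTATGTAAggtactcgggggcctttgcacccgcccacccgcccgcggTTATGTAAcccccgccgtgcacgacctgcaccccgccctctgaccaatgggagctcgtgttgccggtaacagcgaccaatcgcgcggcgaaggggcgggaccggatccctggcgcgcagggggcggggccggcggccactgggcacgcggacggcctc
Leo1: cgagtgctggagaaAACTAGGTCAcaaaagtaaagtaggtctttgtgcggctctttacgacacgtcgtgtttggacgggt
Hspa5: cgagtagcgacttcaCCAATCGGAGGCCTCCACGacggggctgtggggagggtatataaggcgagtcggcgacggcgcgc

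Of the 16 measured core clock genes, 9 were called, 4 of them higher around lights on and 5 higher around lights off, and the median difference over the 16 was -0.40 against -0.02 over all genes. The list was drawn up with earlier results of these arrays known. Of all genes tested, 1.06% were called, and the counts of this and later lists are to be read against that share. The activators of the loop were higher around lights on. Arntl read 7.31 and 7.21 at ZT20 and 7.78 and 7.36 at ZT0, against 5.25 and 6.08 at ZT8 and 4.16 and 4.58 at ZT12. All 4 pools around lights on lay above all 4 around lights off, and the difference was 2.40 (SE 0.18, 95% interval 1.98 to 2.82, 5.28-fold, adjusted p = 0.00124). Npas2, the CLOCK paralogue, read 7.30, 7.70, 8.45 and 8.27 around lights on, 6.68 and 6.22 at ZT8 and 4.81 and 3.86 at ZT12. Its difference of 2.54 (SE 0.23, 5.81-fold, adjusted p = 0.00213) was the largest in that direction, the ZT12 pools lay lower than the ZT8 pools, and its second probe set differed by 0.14 (adjusted p = 0.584 over all probe sets), which puts the mean of both at 1.34. Without ZT12 the value of Npas2 was 1.48 (adjusted p = 0.0546), and without ZT0 it was 2.11 (adjusted p = 0.0604). Clock itself read 9.71, 10.03, 9.95 and 9.79 around lights on and 9.26, 8.87, 9.12 and 8.85 around lights off. The sides did not overlap, the difference was smaller at 0.85 (SE 0.12, 1.80-fold, adjusted p = 0.0181), and the call was lost in 5 of the 12 omissions of 1 array (adjusted p up to 0.0721).

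The NR1D repressors of Arntl were higher around lights off. Nr1d2 (REV-ERB beta) read 8.01 and 7.67 at ZT20, 8.13 and 7.77 at ZT0, 10.27 and 10.50 at ZT8 and 10.74 and 10.87 at ZT12. Both times of a side stood close together, with a difference of -2.70 (SE 0.13, 6.51-fold, adjusted p = 5.69e-05). Nr1d1 (REV-ERB alpha) read 7.06 and 6.34 at ZT20 and 8.13 and 8.10 at ZT0, against 10.37 and 10.37 at ZT8 and 10.16 and 9.52 at ZT12. It had the same mean difference of -2.70 (SE 0.21, adjusted p = 0.00132), but its lowest time was ZT20, with a value of -3.67 for ZT20 minus ZT8 and of -2.26 for ZT0 minus ZT8. The activator Rora, which binds the same elements, differed by -0.22 (SE 0.07, adjusted p = 0.222), with overlapping sides.

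The period and cryptochrome repressors did not move as 1 group. Per3 read 6.68 and 6.78 at ZT20 and 5.85 and 6.13 at ZT0, against 8.10 and 8.19 at ZT8 and 9.33 and 9.50 at ZT12. Every lights-off pool exceeded every lights-on pool, the difference was -2.42 (SE 0.16, 5.36-fold, adjusted p = 0.000432), and all 6 of its probe sets were called in that direction. The other 5 probe sets of Per3 differed by -1.04 to -1.79, and the mean of all 6 by -1.52. Per1 read 8.41, 8.76, 8.32 and 8.89 around lights on and 9.33, 9.22, 9.77 and 9.80 around lights off, with a difference of -0.94 (SE 0.20) that missed the threshold (adjusted p = 0.0650) although the sides did not overlap. Per2 read 8.36 and 8.89 at ZT20 but 6.97 and 7.20 at ZT0, and 7.72 and 7.79 at ZT8 but 9.01 and 9.03 at ZT12. Its difference of -0.53 (adjusted p = 0.0830) averages times that disagree: ZT20 stood 0.87 above ZT8, while ZT0 minus ZT12 was -1.94. Without ZT0 its value was 0.24 and without ZT12 it was 0.10.

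Cry1 was higher around lights on and Cry2 higher around lights off. Cry1 read 10.11 and 9.96 at ZT20, 9.10 and 9.13 at ZT0, 7.49 and 7.57 at ZT8 and 8.63 and 9.12 at ZT12. The difference was 1.37 (SE 0.16, 2.59-fold, adjusted p = 0.00838), but the sides overlapped, since ZT12 pool 2 reached the ZT0 pools, and the call was lost without ZT8 pool 1 (adjusted p = 0.05001). Its value was 0.91 without ZT20 (adjusted p = 0.156) and 0.70 without ZT8 (adjusted p = 0.268). Cry2 read 9.12, 9.41, 8.51 and 8.26 around lights on and 9.42, 9.43, 9.78 and 10.01 around lights off, a narrow separation with a difference of -0.83 (SE 0.11, adjusted p = 0.0140) that was lost in 4 of the 12 omissions (adjusted p up to 0.0591). Without ZT20 the value of Cry2 was -1.27, and without ZT0 it was -0.40 (adjusted p = 0.306). Ciart read 6.02, 5.64, 5.33 and 5.71 against 6.53, 6.31, 6.51 and 6.67 around lights off, a difference of -0.83 (SE 0.13, adjusted p = 0.0336) that was lost in 9 of the 12 omissions (adjusted p up to 0.111). The remaining members did not pass: Bhlhe40 and Bhlhe41, E-box repressors, differed by -0.44 and -0.35 (adjusted p = 0.329 and 0.260), and the casein kinases Csnk1d and Csnk1e, which phosphorylate the PER proteins, by -0.01 and -0.10 (adjusted p = 0.976 and 0.770). The signs of Csnk1d and Csnk1e turned under some settings, which are given among the processing alternatives.

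**Figure D2:**
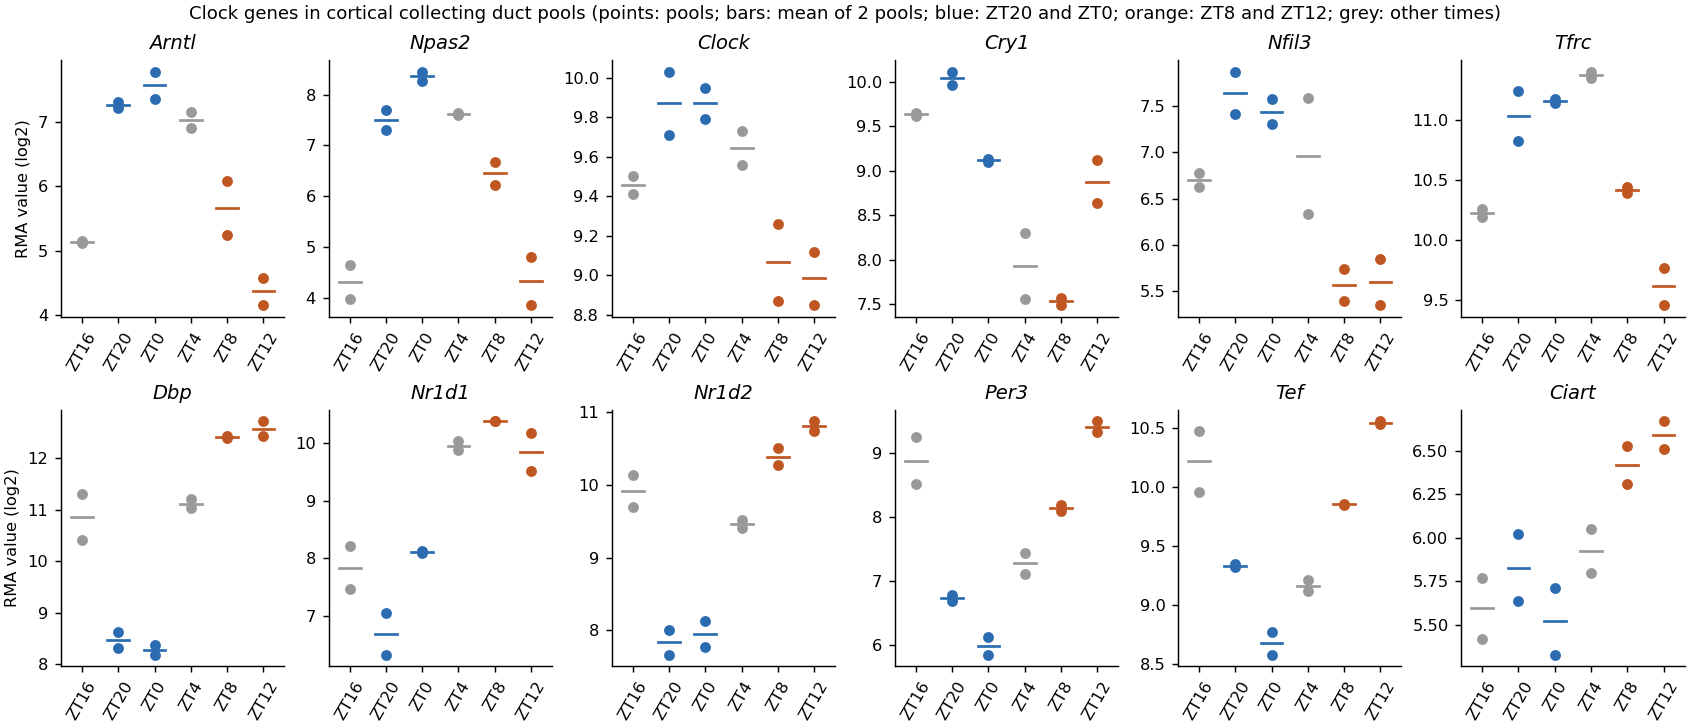
RMA values (log2) of 12 called clock genes in the 12 CCD pools, by time from ZT16 through lights on at ZT0 to lights off at ZT12, each panel on its own axis. Points are pools and bars the mean of 2 pools, and Cry1 is the gene shown whose lights-on (blue) and lights-off (orange) pools overlap.

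Of the 12 measured clock output genes, 8 were called, 4 in each direction, with a median difference of -0.29. That list too was drawn up with earlier results of these arrays known, and 1.06% of all genes were called. Dbp and Nfil3, which compete for D-boxes, stood opposite each other. Dbp read 8.32, 8.62, 8.38 and 8.19 around lights on and 12.40, 12.43, 12.72 and 12.43 around lights off. Within a side the pools lay close together, and the difference of -4.12 (SE 0.18, 95% interval -4.52 to -3.71, 17.4-fold, adjusted p = 2.54e-05) was the largest in size of all genes. Nfil3 read 7.41, 7.87, 7.58 and 7.30 against 5.74, 5.39, 5.35 and 5.85 around lights off, a difference of 1.96 (SE 0.26, 3.89-fold, adjusted p = 0.0140). The sides of Nfil3 did not overlap, and its call was lost in 5 of the 12 omissions (adjusted p up to 0.0670). Tef, the PAR bZIP relative of Dbp, was also higher around lights off (difference -1.20, SE 0.11, adjusted p = 0.00220) and all 3 of its probe sets were called, although the call was lost without ZT0 (adjusted p = 0.0702) and without ZT12 (adjusted p = 0.0713). Hlf, the other relative, differed by -0.71 (SE 0.16, adjusted p = 0.0762), and its second probe set by -1.61 (adjusted p = 0.0494 over all probe sets).

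Among the other output genes, Tfrc, the transferrin receptor that takes up iron, read 10.82, 11.24, 11.17 and 11.14 around lights on, 10.44 and 10.39 at ZT8 and 9.77 and 9.46 at ZT12. All lights-on pools were higher, the difference was 1.08 (SE 0.11, adjusted p = 0.00327), and all 6 probe sets were called. It was 0.68 without ZT12 (adjusted p = 0.0783) and 1.01 without ZT0 (adjusted p = 0.0545). Lonrf3, a ring finger protein, differed by 1.23 (SE 0.13, adjusted p = 0.00577) and Leo1 by 0.87 (SE 0.15, adjusted p = 0.0356), the latter lost in 8 of the 12 omissions (adjusted p up to 0.120). Tspan4, a tetraspanin, read 7.17, 7.19, 7.08 and 6.98 against 7.86, 7.92, 8.37 and 8.47, a difference of -1.05 (SE 0.09, adjusted p = 0.00196). Usp2, a deubiquitinase, differed by -0.78 (SE 0.11, adjusted p = 0.0177) with overlapping sides, because its ZT20 pools (9.83 and 9.63) matched its ZT8 pools (9.57 and 9.75), and the call was lost in 5 of the 12 omissions (adjusted p up to 0.0740). Its value ranged from -0.32 without ZT12 and -0.39 without ZT0 to -1.17 without ZT20 and -1.24 without ZT8. Wee1, a mitotic kinase, differed by -0.58 (adjusted p = 0.116), Tsc22d3, a glucocorticoid-induced protein, by 0.29 (adjusted p = 0.263) and Nampt, of nicotinamide salvage, by 0.00 (adjusted p = 0.995). For Tsc22d3 the times of a side again disagreed: ZT20 stood 1.13 above ZT8, and the value of ZT0 minus ZT12 was -0.55.

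Outside the clock lists, the largest difference belonged to Sphk2, a kinase that makes sphingosine 1-phosphate and the neighbour of Dbp on chromosome 7. Its main probe set read 7.77, 8.05, 7.69 and 7.67 around lights on and 11.60, 11.53, 11.90 and 11.61 around lights off. The difference was -3.87 (SE 0.13, 14.6-fold, adjusted p = 7.37e-06), while its second probe set read 9.17 around lights on and 9.07 around lights off, a difference of 0.09 (adjusted p = 0.665), and the mean of both was -1.89. Whether the main probe set reads Sphk2 or its neighbour was not tested. Rasl11a, a Ras-like GTPase, read 7.76, 8.22, 8.66 and 7.96 around lights on, 6.85 and 7.15 at ZT8 and 5.64 and 4.77 at ZT12. The sides did not overlap (difference 2.05, SE 0.26, 4.15-fold, adjusted p = 0.0122), ZT12 was lowest, and the call was lost without ZT8 pool 1 (adjusted p = 0.0570) and without ZT20 pool 2 (adjusted p = 0.0606). Without ZT12 the value of Rasl11a was 1.15 (adjusted p = 0.147), and without ZT0 its adjusted p was 0.0738.

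Further genes higher around lights on were of varied function. Fubp1, a DNA-binding regulator of Myc, read 9.59, 9.55, 9.65 and 9.66 against 8.35, 8.52, 8.92 and 8.96, and Rilpl2, a Rab effector relative, read 9.40, 9.40, 9.56 and 9.52 against 8.54, 8.55, 8.60 and 8.68. In both, every lights-on pool lay above every lights-off pool (Fubp1 0.92, SE 0.07, adjusted p = 0.00119, and Rilpl2 0.88, SE 0.08, adjusted p = 0.00196). Pools of a side were close in Rilpl2, while the ZT8 pools of Fubp1 lay below its ZT12 pools. For Fubp1, 2 of the 4 probe sets were not called and the mean of the 4 was 0.44. Tnfaip2, induced by tumour necrosis factor, differed by 0.96 (SE 0.11, adjusted p = 0.00838) and Scamp5, a secretory carrier membrane protein, by 0.90 (SE 0.10, adjusted p = 0.00577). Without ZT12 Tnfaip2 was 0.61 (adjusted p = 0.114) and Scamp5 0.46 (adjusted p = 0.151), and without ZT0 both calls were lost too (adjusted p = 0.0696 and 0.0748). Nupr1, a stress-induced chromatin protein, differed by 1.13 (SE 0.18, adjusted p = 0.0306), Zeb2, a zinc finger repressor, by 1.06 (SE 0.19, adjusted p = 0.0450), Anxa9, an annexin, by 0.95 (SE 0.16, adjusted p = 0.0345) and Pxdc1, a phox domain protein, by 0.89 (SE 0.17, adjusted p = 0.0495). These 4 calls were lost in 10, 10, 10 and 11 of the 12 omissions, and the other 4 probe sets of Zeb2 differed by 0.02 to 0.31 (mean of all 5, 0.34). Without ZT12 the value of Pxdc1 was 0.47 (adjusted p = 0.373).

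Among further genes higher around lights off, Pcp4, a calmodulin-binding peptide, read 7.02, 7.51, 7.81 and 7.89 around lights on and 9.40, 9.32, 8.83 and 9.38 around lights off. No pool of one side reached the other (difference -1.67, SE 0.15, 3.19-fold, adjusted p = 0.00213). Tmem86a, a transmembrane protein, read 6.87, 6.69, 7.18 and 7.33 against 8.21, 7.98, 8.08 and 7.99 (difference -1.05, SE 0.09, adjusted p = 0.00196). Rdh9, a retinol dehydrogenase, differed by -1.23 (SE 0.15, adjusted p = 0.0103) and lost its call without ZT20 pool 2 (adjusted p = 0.0533). It was dim, with means of 3.60 around lights on and 4.83 around lights off, both under the CCD array medians of 5.83 to 5.87. Slc6a9, a glycine transporter, differed by -1.12 (SE 0.18, adjusted p = 0.0312), and its ZT0 pools (7.91 and 7.04) lay below its ZT20 pools (8.54 and 8.56), so that without ZT0 its value was -0.59 (adjusted p = 0.155). Efna3, an ephrin, differed by -1.36 (SE 0.20, adjusted p = 0.0223), Trim75, a tripartite motif protein, by -1.53 (SE 0.25, adjusted p = 0.0346) and Ifit1, an interferon-induced protein, by -0.99 (SE 0.18, adjusted p = 0.0449). Trim75 was dim as well, with means of 4.88 around lights on and 6.41 around lights off. The calls of Slc6a9, Efna3, Trim75 and Ifit1 were lost in 8, 8, 9 and 12 of the 12 omissions. The second probe set of Efna3 differed by -0.39 (adjusted p = 0.171), and the mean of both by -0.87.

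Of 18 measured genes of principal cell sodium and potassium transport 1 was called, with a list median of 0.01. Kcnk1, a potassium channel, read 10.65, 10.60, 10.56 and 10.53 against 10.13, 10.26, 10.29 and 10.30. The sides were apart, but the difference of 0.34 (SE 0.06, adjusted p = 0.0458) was lost in all 12 omissions (adjusted p up to 0.132). Prss8, the protease prostasin that activates the sodium channel, differed by -0.31 (SE 0.06, adjusted p = 0.0629), Sgk1, the aldosterone-induced kinase, by -0.29 (adjusted p = 0.145) and Kcnj10, a basolateral potassium channel, by 0.22 (adjusted p = 0.199). The sodium channel subunits, looked at after their values were seen, were not called: Scnn1a differed by 0.27 (95% interval 0.03 to 0.51), Scnn1b by -0.07 (-0.21 to 0.08) and Scnn1g by -0.05 (-0.20 to 0.10), so that for Scnn1b and Scnn1g a change beyond 0.21 either way lies outside the unadjusted interval.

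Of 23 genes of water transport and the vasopressin response 1 was called, with a list median of -0.02. Avpr1a, the V1a vasopressin receptor, read 12.77, 12.64, 12.63 and 12.80 around lights on, 12.38 and 12.39 at ZT8 and 11.86 and 11.75 at ZT12. It was higher in every lights-on pool (0.62, SE 0.07, 1.53-fold, adjusted p = 0.00722), and its second probe set differed by 1.02. Without ZT12 its value was 0.33 (adjusted p = 0.181), and without ZT0 the call was lost too (adjusted p = 0.0545). Avpr2, the V2 receptor through which vasopressin inserts aquaporin 2, read 11.80, 11.89, 11.86 and 11.81 against 11.15, 11.30, 11.49 and 11.68, with the sides apart and a difference of 0.44 (SE 0.08, adjusted p = 0.0511) that missed the threshold. Ptger1, a prostaglandin E receptor, differed by 0.50 (adjusted p = 0.0763) and Pde4d, which breaks down cyclic AMP, by -0.31 (adjusted p = 0.0837). Aqp2 itself, named after its values were seen, read 10.35, 10.59, 10.31 and 10.21 against 9.98, 10.14, 10.17 and 10.38, with overlapping sides and a difference of 0.19 (SE 0.10, 95% interval -0.02 to 0.41, adjusted p = 0.412).

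Of 19 intercalated cell genes 1 was called, and 15 of the 19 had negative values (list median -0.10). Over all genes 9824 values were negative and 8370 positive, the background for this and later counts of signs. P2ry14, the UDP-glucose receptor, read 7.51, 7.88, 7.73 and 7.61 around lights on and 8.64, 8.49, 8.35 and 8.66 around lights off. The difference was -0.85 (SE 0.11, 1.81-fold, adjusted p = 0.0123) and was lost without ZT0 pool 2 (adjusted p = 0.0539) and without ZT8 pool 1 (adjusted p = 0.0570). Atp6v1c2, a proton pump subunit, differed by -0.27 (adjusted p = 0.107), Foxi1, the transcription factor that specifies these cells, by -0.22 (adjusted p = 0.263) and Insrr, an alkali-sensing receptor, by -0.23 (adjusted p = 0.292). The mean of the 19 intercalated cell genes lay between 10.68 and 10.84 on lights-on arrays and between 10.86 and 10.96 on lights-off arrays, without overlap. Means without overlap were found for 6 of the 26 lists: the intercalated cell, core clock, glucocorticoid and DNA repair lists were higher around lights off, and the unfolded protein response and water transport lists higher around lights on (for water transport, 9.42 to 9.49 against 9.36 to 9.42). Single genes had sides without overlap in 8.85% of cases. Lists can share genes and were drawn up with earlier results known, so nothing is read from the count of lists. In pooled tubules fewer cells of a type and less RNA per cell cannot be told apart.

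Of 21 measured genes of the unfolded protein response, mostly chaperones of the endoplasmic reticulum and their regulators, 3 were called, 18 had positive values, and the list median was 0.20. Sdf2l1, an endoplasmic reticulum protein, read 8.63, 8.67, 8.52 and 8.65 against 7.99, 7.82, 7.68 and 7.40 (difference 0.90, SE 0.12, adjusted p = 0.0160). Hspa5 read 12.69, 12.48, 12.53 and 12.67 against 12.13, 12.00, 12.08 and 12.14 (difference 0.50, SE 0.09, adjusted p = 0.0384). In both genes every lights-on pool was higher, and both were also high at ZT16, where Sdf2l1 read 9.07 and 8.60 and Hspa5 12.97 and 12.71. Herpud1, which serves degradation of misfolded proteins, went the other way (-0.52, SE 0.09, adjusted p = 0.0339), and Calr, calreticulin, differed by 0.35 (adjusted p = 0.0514). The calls of Sdf2l1, Hspa5 and Herpud1 were lost in 6, 10 and 12 of the 12 omissions, and without ZT12 the value of Herpud1 was -0.32.

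Of 18 heat shock chaperones 1 was called, 14 had positive values, and the median was 0.08. The called gene was Hspb8, a small heat shock protein, and it was higher around lights off (-0.52, SE 0.09, adjusted p = 0.0384), while its other 2 probe sets were not called (mean of all 3, -0.26). Ahsa1 and Stip1, cochaperones of HSP90, both differed by 0.28 (adjusted p = 0.0770 and 0.177) and Hsp90aa1 by 0.21 (adjusted p = 0.152). Cirbp, the cold-inducible RNA-binding protein and the 1 measured member of its list, read 9.81, 9.47, 9.98 and 9.77 around lights on and 10.78, 10.62, 9.95 and 10.10 around lights off. The sides overlapped at ZT0 and ZT12, and the difference was -0.61 (SE 0.10, adjusted p = 0.0384). The lowest level of Cirbp was at ZT16, with a mean of 9.05, and at ZT4 its mean was 10.37. The calls of Hspb8 and Cirbp were lost in 12 and 11 of the 12 omissions. Hspb8 was -0.29 without ZT20, and Cirbp ranged from -0.27 without ZT8 to -0.94 without ZT12.

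Of 20 glucocorticoid response genes 1 was called, 16 had negative values, and the median was -0.26. Zbtb16, a zinc finger factor induced by glucocorticoids, read 8.63, 7.43, 6.81 and 6.67 around lights on and 8.95, 8.95, 9.81 and 9.66 around lights off. The sides did not overlap, ZT20 pool 1 came closest to the other side, and the difference of -1.96 (SE 0.32, 3.88-fold, adjusted p = 0.0345) was lost in 7 of the 12 omissions (adjusted p up to 0.107). Fkbp5, a cochaperone of the glucocorticoid receptor, differed by -0.46 (adjusted p = 0.0538) and Mt2, a metallothionein, by -0.52 (adjusted p = 0.0809). Per1, Sgk1 and Tsc22d3, described above, are also on this list. The mean of the list lay between 9.07 and 9.26 around lights on and between 9.34 and 9.66 around lights off.

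Of 16 xenobiotic and PAR bZIP target genes 1 was called, Aldh1a1, a retinaldehyde dehydrogenase, with a difference of 0.60 (SE 0.11, adjusted p = 0.0419) that was lost in 11 of the 12 omissions. With limma, 0 genes were called in 16 of the 26 lists, which hold 243 list entries. Of all genes tested, 14.4% had an unadjusted p under 0.05, and the counts below are to be read against that share. In lists with called genes they were 14 of 16 core clock, 11 of 12 clock output and 13 of 21 unfolded protein response genes. They were 10 of 20 glucocorticoid, 8 of 18 principal cell, 6 of 18 heat shock and 6 of 23 water transport genes. The intercalated cell list had 4 of 19 and the xenobiotic list 2 of 16, and Cirbp passed too. Among the pathways with 0 called, 6 of 17 fatty acid oxidation genes, 2 of 31 oxidative phosphorylation genes, 0 of 13 cholesterol synthesis genes, 0 of 18 ribosomal protein genes and 3 of 21 immediate early genes had an unadjusted p under 0.05. For proliferation the numbers were 3 of 21 S phase genes, 0 of 19 mitosis genes and 3 of 13 genes of DNA repair and growth arrest. Of the latter, Ccnd1, cyclin D1, read 11.98, 12.02, 11.84 and 11.78 against 12.12, 12.15, 12.30 and 12.26 and was not called (-0.30, adjusted p = 0.0727). Of markers of other cells, 0 were called, with unadjusted p under 0.05 in 0 of 18 proximal tubule, 0 of 10 thick ascending limb, 2 of 14 distal convoluted and connecting tubule, 1 of 6 podocyte, 2 of 12 endothelial, 2 of 12 vascular and fibroblast, 1 of 14 leukocyte and 0 of 4 erythrocyte genes.

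**Figure D3:**
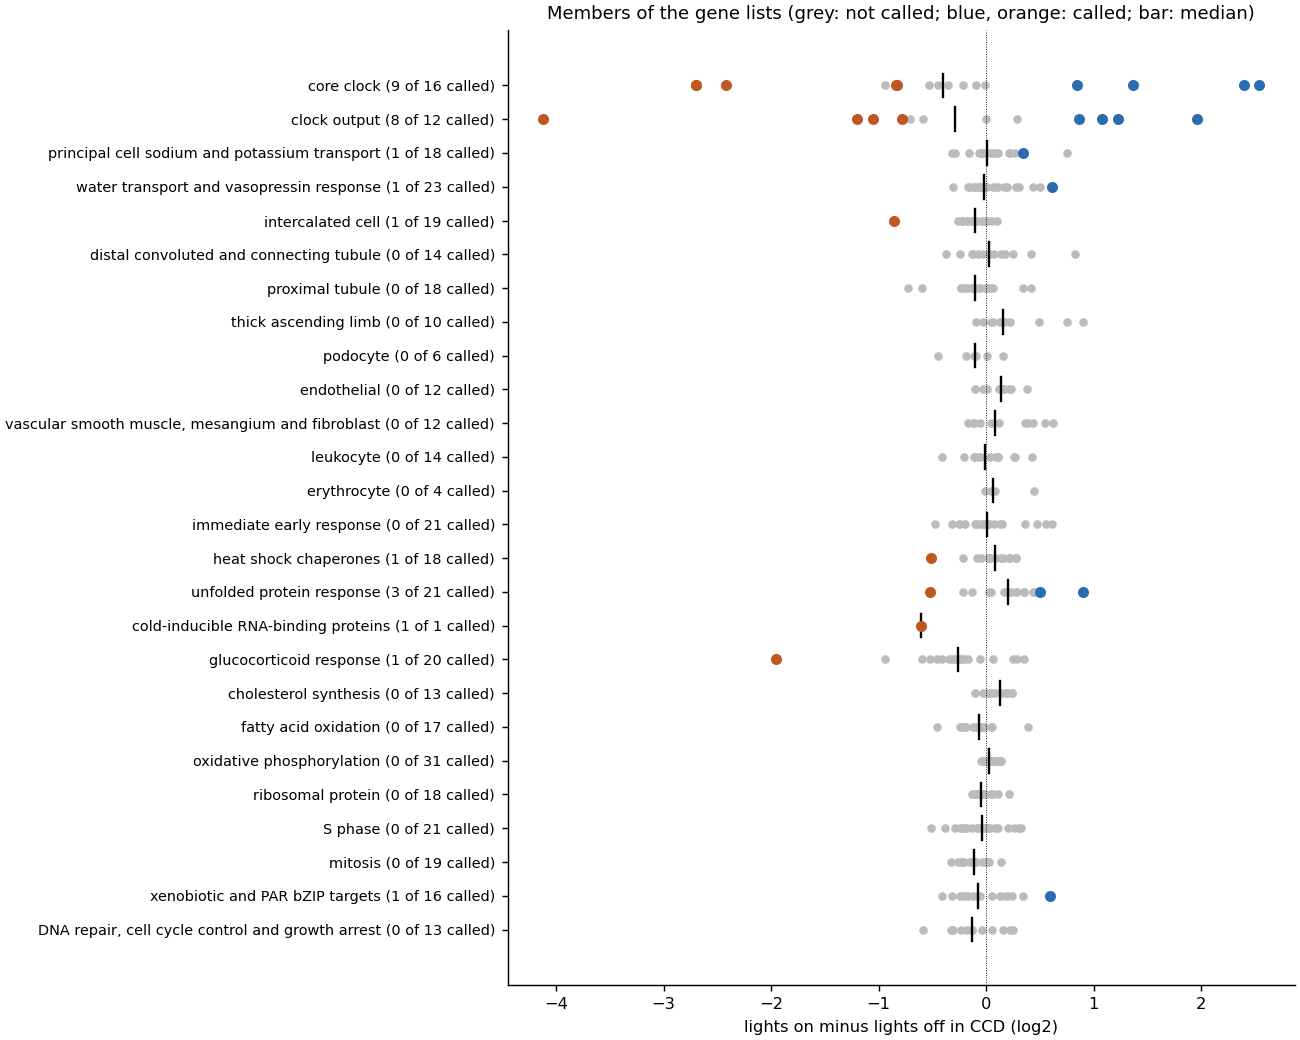
Difference between the sides (log2) for each measured member of the 26 lists, with black bars at list medians. Blue and orange points are called genes higher around lights on and lights off, and grey points were not called. Among list members, the called genes lie mostly in the core clock (9 of 16) and clock output (8 of 12) lists. Most of the 193 genes called in CCD are on no list. All 26 lists were drawn up with earlier results of these arrays known.

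The levels at ZT4 and ZT16 did not enter the contrast. Among genes not called, 31.7% had a ZT4 mean and 31.5% a ZT16 mean between the means of the sides, but called genes were chosen for a wide gap between the sides, which favours both this and a peak at a time of the higher side. The counts are therefore a description. Of the 95 genes higher around lights on, 86 had a ZT4 mean and 68 a ZT16 mean between the means of the sides. The highest of the 6 times was ZT0 for 40 of them, ZT20 for 39, ZT16 for 12 and ZT4 for 4, and the lowest was ZT8 for 55 and ZT12 for 37. Of the 98 genes higher around lights off, 87 had a ZT4 mean and 70 a ZT16 mean between the sides. Their highest time was ZT12 for 49 and ZT8 for 45, and their lowest was ZT0 for 61, ZT20 for 28 and ZT16 for 9. Npas2 at ZT16 (3.97 and 4.65) was as low as at ZT12, whereas at ZT4 it still read 7.64 and 7.60. Nr1d1 ran the other way, with 9.87 and 10.03 at ZT4 and 7.47 and 8.21 at ZT16, and Dbp was intermediate at both (11.03 and 11.21, then 10.42 and 11.30).

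The same contrast was set beside the DCT/CNT pools, in a fit of all 24 arrays in which 438 genes were called in DCT/CNT (2.41%) and 216 in CCD (1.19%). Of the genes called in CCD, 88 of the 95 (92.6%) and 91 of the 98 (92.9%) had the same sign in DCT/CNT, against 61.5% of the genes not called, and 46 and 41 were also called there. It is not stated whether both segments came from the same animals, so DCT/CNT may not be an independent sample. The fit did not pair the segments. Dbp differed by -4.10 in DCT/CNT and by -4.12 in CCD, and Arntl by 2.17 and 2.40. Rasl11a differed by 0.38 in DCT/CNT (adjusted p = 0.567) and by 2.05 in CCD, but the segment difference of 1.68 was not called (adjusted p = 0.793). For Npas2 the segment difference was 0.93 (adjusted p = 0.858) and for Per3 -0.87 (adjusted p = 0.850). A difference between the segments was called for 2 genes (0.011%), and 1008 genes had an unadjusted p under 0.05 in it.

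The 2 genes were Ranbp3l, a relative of the nuclear export factor RANBP3, and E230013L22Rik, a gene without stated function that was named after its values were seen. In CCD Ranbp3l read 9.57 and 9.71 at ZT20, 9.39 and 9.13 at ZT0, 7.82 and 8.43 at ZT8 and 9.03 and 9.87 at ZT12, and was not called (0.66, SE 0.20, adjusted p = 0.168). In DCT/CNT it read 5.91, 6.15, 5.45 and 5.79 around lights on and 7.70, 8.21, 6.93 and 7.57 around lights off. The sides overlapped in CCD and were apart in DCT/CNT, where the difference was -1.78 (SE 0.20), and the segments differed by 2.44 (SE 0.29, 95% interval 1.82 to 3.05, adjusted p = 0.00374). Without ZT8 the CCD value of Ranbp3l was -0.0064. E230013L22Rik read 8.75, 8.85, 8.63 and 8.69 around lights on and from 7.85 to 8.15 around lights off in CCD, apart and called (0.69, SE 0.07, adjusted p = 0.00320), while it differed by -0.14 in DCT/CNT, a segment difference of 0.84 (SE 0.09, adjusted p = 0.00223).

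**Figure D4:**
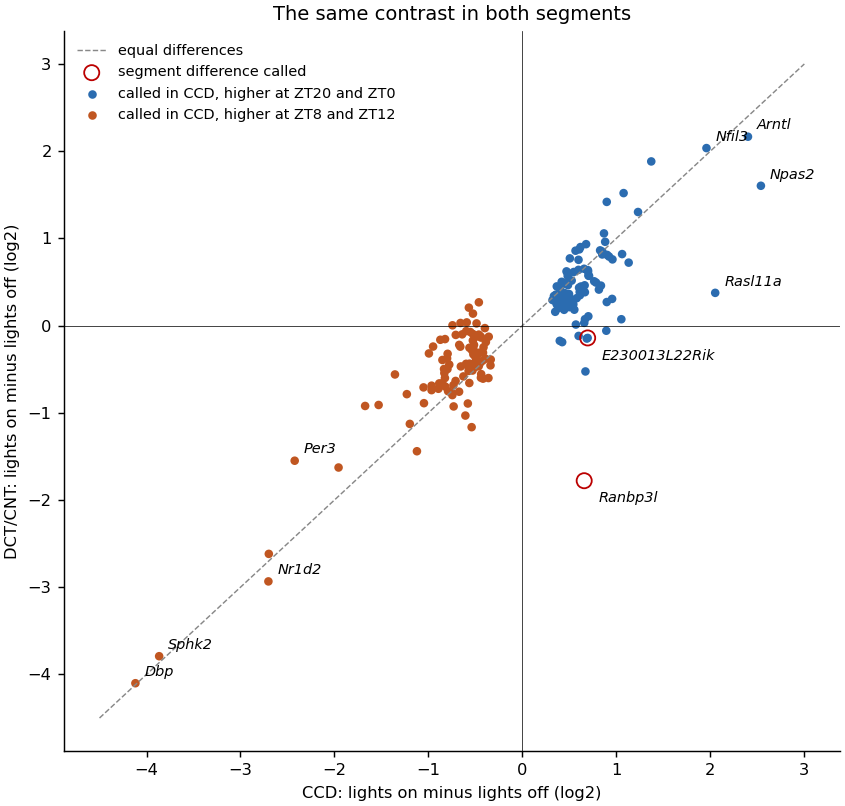
Lights-on minus lights-off difference (log2) in CCD (horizontal) and DCT/CNT (vertical) for the 193 genes called in CCD and for Ranbp3l. The dashed line marks equal differences, open red circles the 2 genes with a called segment difference; Dbp, Sphk2 and Nr1d2 lie near the line and Ranbp3l lies farthest from it.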

How the data were processed

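The authors deposited log2 RMA values of 45101 probe sets on 24 arrays. RMA is named in the submitters' processing notes without a version, and whether both segments were normalised in 1 run is not given in the sources used here. Values were used as deposited. Of the probe sets, 34958 had 1 gene symbol, 932 several and 9211 none, and 34754 matched RefSeq by gene number. A gene's value (18194 genes) is that of its brightest probe set by the mean of the 24 arrays (9012 genes had more than 1), with no filter on dim genes.

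A mean per group was fitted with limma 3.58.1 (lmFit and eBayes, R 4.3.3) to the 12 CCD arrays in 6 groups, and the lights-on minus lights-off contrast averaged the 2 times of each side. The segment difference was fitted on all 24 arrays in 12 groups. P-values were adjusted by the Benjamini-Hochberg method over all genes (other probe sets: over all probe sets with 1 symbol) and called under 0.05. SE and 95% intervals are those of the fit. The number of arrays limits the precision. The array medians of CCD lay between 5.83 and 5.87, and r across genes between the 2 pools of a CCD group was 0.993 to 0.995. The array medians of DCT/CNT lay between 5.80 and 5.89. The interquartile ranges of the arrays did not overlap between the segments, with 4.08 to 4.28 in CCD and 3.32 to 3.65 in DCT/CNT (log2).

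Named genes were, in each direction, the 15 called genes of greatest difference whose sides did not overlap, all core clock and clock output genes, up to 4 members of every other list by adjusted p, and the called segment differences, leaving out predicted genes. Other genes are said to be chosen after their values were seen. The comparison, the rule and the 26 lists were chosen with earlier results of these data known. Genes can be on 2 lists, and some list genes were not analysed here. The alternatives were other samples in the fit, normalisation, array weights, variance prior, a filter on dim genes, probe set choice, a block for the pool number, and omission of arrays and times.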

Additional observations from a re-analysis of the deposited data

Results flagged for a closer look

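The difference between the sides differed between the segments in 2 genes by limma's interaction contrast over 24 arrays. For Ranbp3l the CCD value exceeded the DCT/CNT value by 2.44 (log2, adjusted p = 0.00374). For E230013L22Rik it exceeded it by 0.84 (adjusted p = 0.00223), with a called difference in CCD and a value of -0.14 in DCT/CNT. With 2 pools per group, single arrays could not be tested as outliers.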

How the results depend on the processing

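Against 193 called genes (95 higher around lights on, 98 higher around lights off), the count was 47 (23 and 24) from the 8 arrays alone, 51 (23 and 28) with the times of a side not kept apart, 687 (371 and 316) with a trended robust variance prior and 577 (294 and 283) among genes with a mean of at least 6. It was 55 (22 and 33) without ZT20, 22 (11 and 11) without ZT0, 61 (26 and 35) without ZT8 and 22 (13 and 9) without ZT12. Leaving out each array gave 41 to 102 genes, 17 to 54 higher around lights on and 24 to 48 higher around lights off. It was 216 from all 24 arrays, 181, 232 and 224 with equal medians, quantile and cyclic loess normalisation, 140 with array weights, 178 and 219 with other probe set rules, and 133 with the proximal tubule list as a covariate, an alternative chosen after seeing the data. Directions of the called genes that were tested held in every setting, except for 1 gene under each of the other probe set rules. For called genes whose sides did not overlap, no omission of an array or time could turn the direction. Calls were gained too. Of the 13 settings other than omissions, Avpr2 and Calr passed in 5, and Per1 and Hlf in 4. None of them passed when an array or time was left out.

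With the pool number as a replicate block the count was 92 (49 and 43), of which 88 were among the 193. The deviations of same-number pools had r from -0.206 to 0.173 over 15 pairs of CCD times (median -0.005), above 0.1 in 2 pairs. Whether the pool number marks a batch, or pairs CCD with DCT/CNT pools, was not tested. Under the block Per1 passed (adjusted p = 0.0432), and the calls of Nupr1, Zeb2, Anxa9, Pxdc1, Zbtb16, Trim75, Slc6a9, Ciart, Kcnk1, Hspb8, Herpud1, Hspa5, Cirbp and Aldh1a1 were lost.

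The count of segment differences was 2 to 4 over omissions of 1 array and 2 under each other setting, the block included. Signs turned for genes not called. Nampt was 0 and -0.0012 with quantile and cyclic loess normalisation, -0.11 without ZT20, -0.21 without ZT8 and -0.0279 to 0.0316 over omissions of 1 array. Csnk1e was 0.0735 with the mean of its probe sets and 0.11 without ZT12. Csnk1d was 0.0391 without ZT0, 0.0158 without ZT12 and -0.0612 to 0.0413 over omissions of 1 array. Tsc22d3 was -0.16 without ZT20 and -0.10 without ZT8, Per2 0.24 without ZT0 and 0.10 without ZT12, and Ranbp3l -0.0064 without ZT8. The cause was not tested.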

Other observations

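Of the 193 called genes, 32 stayed called in all 12 omissions of 1 array, and 11 of these also in all 4 omissions of a time. The 11 were Arntl, Fubp1, Rilpl2 and Tardbp, higher around lights on, and Dbp, Sphk2, Nr1d1, Nr1d2, Per3, Pcp4 and Tmem86a, higher around lights off. Tardbp, an RNA-binding regulator of splicing, read 11.43, 11.55, 11.29 and 11.27 around lights on and 10.33, 10.32, 10.66 and 10.82 around lights off (difference 0.85, SE 0.07, adjusted p = 0.00196 by limma), and it was higher still at ZT16 (11.59 and 11.54). The difference of Tardbp in DCT/CNT was also 0.85. Over the processing alternatives other than omissions its CCD difference ranged from 0.59 to 0.86.

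Of the other genes among the 32, 5 are named here after their values were seen. Slit2, a secreted guidance ligand, read 9.73, 9.92, 9.66 and 9.56 around lights on and 10.39, 10.43, 10.58 and 10.46 around lights off (-0.75, SE 0.07, adjusted p = 0.00371 by limma). Lpar2, a receptor for lysophosphatidic acid, differed by -0.95 (SE 0.09, adjusted p = 0.00213) and Tnfsf10, the death ligand TRAIL, by -0.82 (SE 0.09, adjusted p = 0.00700). Serpinb9, an inhibitor of granzyme B, was higher around lights on (0.83, SE 0.09, adjusted p = 0.00456). Apex1, an endonuclease of base excision repair, was higher around lights off, with 10.26, 10.45, 10.33 and 10.49 against 9.84, 9.77, 9.60 and 9.62 (-0.67, SE 0.08, adjusted p = 0.00722). Over the processing alternatives other than omissions, Slit2 ranged from -0.75 to -0.63, Lpar2 from -0.95 to -0.69 and Tnfsf10 from -0.82 to -0.77. Serpinb9 ranged from 0.83 to 0.91 and Apex1 from -0.68 to -0.64.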
